A study of Mus musculus with 8 samples.

Results

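The SR and hnRNP splicing factor genes were examined in CUT&Tag peak lists of phosphorylated RNA polymerase II from MEL cells, a mouse erythroleukaemia line. The genes were taken by symbol from the RefSeq table of protein-coding genes for GRCm38: Srsf followed by a number, or any symbol beginning with Hnrnp. This gave 32 genes, 11 Srsf and 21 Hnrnp, of 21535 protein-coding genes whose strand was known. Their level of polymerase played no part in the choice. CUT&Tag uses an antibody to tether a transposase, so that DNA beside the antigen is cut and tagged in place, and the antigens here were the Rpb1 C-terminal domain with phosphate on serine 5 (Ser5P) or on serine 2 (Ser2P). The Myrlin KD line carries a knockdown of Myrlin, the RNA made from the enhancer 81 kb upstream of Myb, and the dCAS control line is its counterpart. Per the design text the dCAS background is shared by both lines. Each of the 4 combinations of line and antibody had 2 replicates, 8 libraries in all. Whether the replicates were separate cultures, or a line a single clone, is not given in the sources used here, and the spread behind each p-value may therefore be technical.

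SR proteins carry RNA-binding domains and a tail rich in arginine and serine, bind exonic enhancers and help the spliceosome recognise neighbouring splice sites. Many hnRNPs coat nascent transcripts and act in the opposite sense, binding silencer elements and looping out or masking exons, and others steer mRNA export, stability and translation. Splicing takes place largely while polymerase is still on the gene. Polymerase receives Ser5P as it initiates, which helps recruit capping enzymes, whereas Ser2P builds up during elongation and is prominent near 3′ ends. The genes of both families are widely expressed, and many of their transcripts hold exons with early stop codons through which the proteins limit their own levels.

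Each library had its own MACS2 list, with between 20793 and 32125 peaks. Relative depth, read as the background pileup solved from each list, was 0.649 and 0.841 in the Ser5P KD libraries, against 0.566 and 0.639 in the Ser5P controls. For Ser2P it was 1.12 and 1.03 in the KD libraries, against 0.780 and 0.439 in the controls. The KD libraries were thus the deeper pair for both antibodies. Peaks had a larger median width in the KD libraries, at 533.5 and 532 bp for Ser5P against 486 and 497 bp in the controls. For Ser2P it was 478 and 479 bp in the KD libraries, against 428 and 381 bp in the controls. Covered bp grow with peak width, so counts and medians of coverage were set beside those of all genes. Within 2500 bp of the point 81 kb upstream of Myb, Ser5P peaks covered 275 and 0 bp in the KD libraries, against 513 and 237 bp in the controls. Ser2P peaks covered 0 and 316 bp of it in the KD libraries, against 302 and 0 bp in the controls. Peaks at this enhancer do not measure the transcript, so the knockdown itself was not checked. Of 15 erythroid marker genes, 8 had Ser5P at the 5′ end in all 4 libraries, and Gata1, Alas2 and Slc4a1 had it in none, though their transcribed intervals had peaks. None of 8 lymphoid, 6 myeloid and 10 epithelial, neural, muscle or liver markers had a Ser5P peak at the 5′ end in any library. Along the transcribed interval, 6 of the 8, 4 of the 6 and 6 of the 10 had no Ser5P peak in any library. In each of these 3 lists 1 gene had Ser5P there in all 4 libraries. Of the erythroid markers 10 had it there in all 4, while Epb42 and Hbb-bs had no interval peak of either mark.

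Nearly all of the splicing factor genes carried both marks at their starts in every library. A gene was marked where a peak overlapped its window by at least 1 bp, and the promoter window reached 1000 bp to each side of the outer 5′ end of the RefSeq interval. Ser5P marked 27 of the 32 genes in all 4 libraries, 10 of 11 SR and 17 of 21 hnRNP genes, against 37.7% of all genes. Ser2P marked 26 of them, 10 SR and 16 hnRNP genes, against 36.3% of all genes. The exceptions were mostly genes whose annotated start lies inside the interval. For 7 genes (Srsf11, Hnrnpf, Hnrnph1, Hnrnpk, Hnrnpl, Hnrnpu and Hnrnpul1) RefSeq places a start more than 1000 bp inside the outer end. Taking 1000 bp around any RefSeq start of the 30 genes with an entry in the RefSeq promoter table, 28 carried both marks in every library, against 41% of all genes for Ser5P and 39.7% for Ser2P. Hnrnpll and Hnrnpul2, which have no entry, were marked by both at the outer end in every library.

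The 2 genes without a start peak in any of the 8 libraries were Srsf12 and Hnrnpa1l2-ps2. Srsf12, an SR protein first described as a splicing repressor, spans chr4:33208991-33233343 and had no peak of either mark in its transcribed interval. Hnrnpa1l2-ps2 (chr15:22713820-22714984) has a symbol of the pseudogene form although the table lists it as protein-coding, and its 1165 bp were free of peaks as well. A list of peaks gives no depth at such a site, so polymerase was not detectable there by these lists rather than shown to be absent.

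Promoter sequences were compared to show what the marked genes and these unmarked genes have in common. The RefSeq table for GRCm38.p6 gives 250 bases before to 50 bases after each start, and 30 of the 32 genes were matched. Hnrnpk on chr13:58402068-58402367 (minus strand) is shown as the gene whose Ser5P start peaks ranked highest, Srsf6 on chr2:162931258-162931557 (plus strand) as the gene with the largest KD minus control difference in the negative direction for Ser5P in the promoter window, and Srsf12 on chr4:33209022-33209321 (plus strand) and Hnrnpa1l2-ps2 on chr15:22714935-22715234 (minus strand) as the genes without a peak. Sequences run 5′ to 3′ on the gene's strand, and capitals mark each CG dinucleotide.
Hnrnpk: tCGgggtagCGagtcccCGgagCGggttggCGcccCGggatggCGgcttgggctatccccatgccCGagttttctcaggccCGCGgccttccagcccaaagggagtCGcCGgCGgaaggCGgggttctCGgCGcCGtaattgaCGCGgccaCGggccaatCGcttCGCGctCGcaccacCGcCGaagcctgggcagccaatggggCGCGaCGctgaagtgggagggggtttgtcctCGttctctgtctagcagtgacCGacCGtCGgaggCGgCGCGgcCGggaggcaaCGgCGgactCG
Srsf6: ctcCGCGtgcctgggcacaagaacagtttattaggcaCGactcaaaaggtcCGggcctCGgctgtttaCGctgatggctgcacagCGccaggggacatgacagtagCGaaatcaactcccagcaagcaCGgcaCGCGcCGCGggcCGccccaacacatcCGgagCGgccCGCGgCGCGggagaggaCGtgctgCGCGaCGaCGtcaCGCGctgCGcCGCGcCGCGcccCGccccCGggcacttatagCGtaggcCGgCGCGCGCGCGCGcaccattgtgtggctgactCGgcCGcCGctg
Srsf12: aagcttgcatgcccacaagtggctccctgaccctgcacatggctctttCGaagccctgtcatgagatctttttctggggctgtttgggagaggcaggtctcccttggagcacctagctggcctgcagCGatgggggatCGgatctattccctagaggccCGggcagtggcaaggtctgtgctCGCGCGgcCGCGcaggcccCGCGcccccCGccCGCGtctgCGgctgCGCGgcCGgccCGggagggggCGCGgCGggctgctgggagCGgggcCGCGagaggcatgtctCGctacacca
Hnrnpa1l2-ps2: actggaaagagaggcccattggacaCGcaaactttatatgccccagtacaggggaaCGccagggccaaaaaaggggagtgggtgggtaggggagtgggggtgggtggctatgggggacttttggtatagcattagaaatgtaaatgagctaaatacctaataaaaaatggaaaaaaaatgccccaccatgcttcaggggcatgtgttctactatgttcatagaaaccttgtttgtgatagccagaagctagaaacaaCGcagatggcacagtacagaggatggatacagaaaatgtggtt
The Hnrnpk window held 40 CG dinucleotides and the Srsf6 window 45. Srsf12 held 26 and Hnrnpa1l2-ps2 only 3. The 30 windows had a median of 29.5 CG dinucleotides, ranging from 3 to 52, against 13 over all 17492 genes with an entry. Their median GC content was 66.7%, against 56.3%. Srsf12, which had no peak, thus held more CG dinucleotides than the median gene.

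Short motifs were counted on both strands of the same windows, each motif apart, so that matches of different motifs may overlap. The GC box GGGCGG was present in 23 of the 30 windows (76.7%), against 46.3% of all genes, and is itself a GC-rich string. CCAAT was present in 17 (56.7%, against 39.2%) and the TATA core TATAAA in 5 (16.7%, against 13.3%): Srsf2, Srsf3, Hnrnpab, Hnrnpm and Hnrnpa1l2-ps2. AACNGNC, the short core that Myb proteins recognise, was present in 18 windows (60%, against 32.2%), among them those of Srsf6, Srsf12 and Hnrnpu. The ETS core CCGGAAGT was present in 4 (13.3%, against 5.28%) and the E box CACGTG in 4 (13.3%, against 7.91%). The GATA core AGATAA was present in 2 (6.67%, against 9.94%). The cyclic AMP response element TGACGTCA was present in none, against 2.33% of all genes. A match describes the letters, and its lack says only that they are not in this window.

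**Figure D1:**
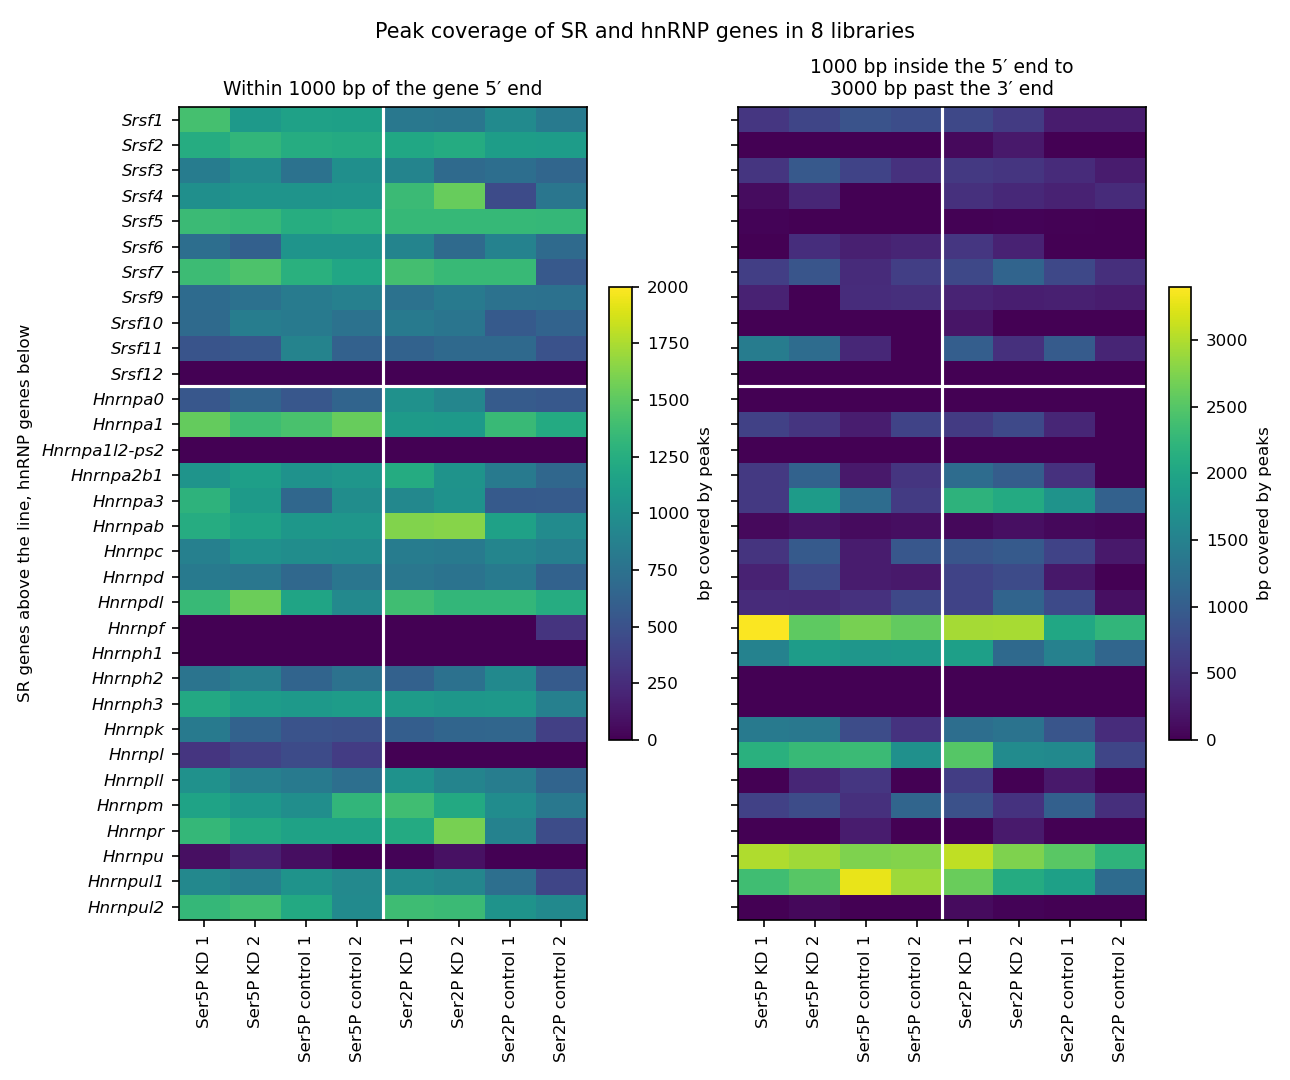
Base pairs covered by peaks for each of the 32 genes (rows, SR genes above the white line and hnRNP genes below it) in the 8 libraries (columns), within 1000 bp of the outer 5′ end on the left and over the transcribed interval with its 3000 bp extension on the right. Srsf12 and Hnrnpa1l2-ps2 are at 0 in every column, Hnrnph1 is at 0 on the left, as is Hnrnpf but for 301 bp in Ser2P control 2, and both are covered on the right, where their inner starts lie.

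**Figure D2:**
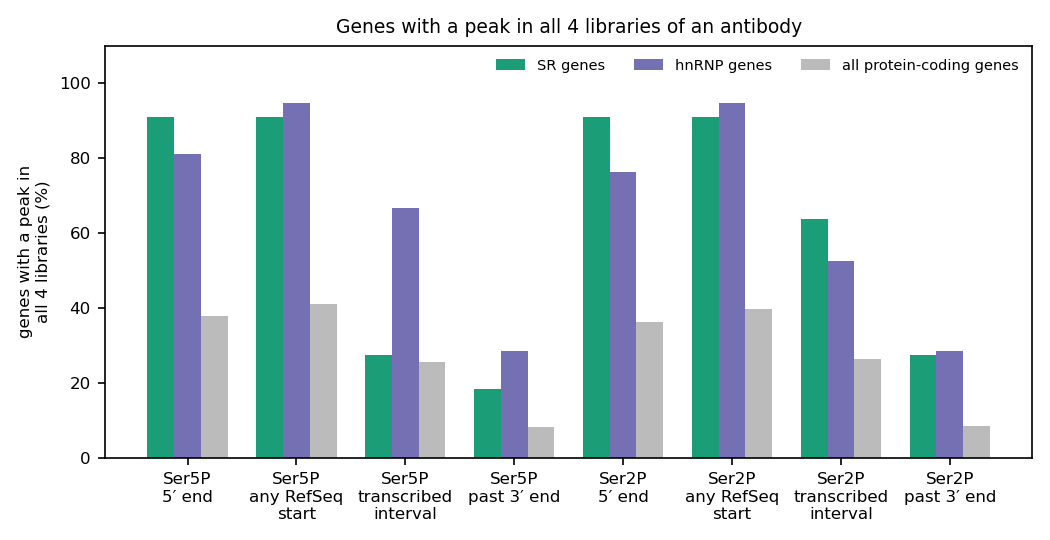
Percent of SR genes, hnRNP genes and all protein-coding genes with a peak in all 4 libraries of an antibody, for 4 windows per antibody. Bars are shares of genes, with 30 of the 32 genes in the windows around RefSeq starts. Both families stand at 76.2% or more at the 5′ end, against 37.7% and 36.3% of all genes, while the Ser5P bars for the transcribed interval differ between SR and hnRNP genes.

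Coverage at the starts ranged widely among the genes. The most covered SR gene for Ser5P was Srsf7, which has a zinc knuckle beside its RNA-binding domain, with 1372 and 1438 bp in the KD libraries, against 1271 and 1180 bp in the controls. Srsf5 followed with 1365 and 1336 bp in the KD libraries, against 1249 and 1268 bp in the controls. Srsf2, or SC35, the marker protein of nuclear speckles, had 1240 and 1314 bp in the KD libraries, against 1235 and 1226 bp in the controls. At these 3 genes the KD libraries were above both controls. Srsf11, Srsf10, which represses splicing when dephosphorylated, and Srsf12 had the lowest Ser5P coverage of the SR genes. Srsf10 had 694 and 849 bp in the KD libraries, against 813 and 750 bp in the controls, so that its groups overlapped.

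Among the hnRNP genes Hnrnpa1, a repressor that binds exonic and intronic silencers, had the most Ser5P, with 1524 and 1380 bp in the KD libraries, against 1423 and 1534 bp in the controls. Hnrnpdl, a relative of Hnrnpd, had 1348 and 1552 bp in the KD libraries, against 1171 and 939 bp in the controls. Hnrnpul2, a relative of Hnrnpu, had 1332 and 1389 bp in the KD libraries, against 1214 and 955 bp in the controls. The last 2 genes had both KD libraries above both controls, and Hnrnpa1 did not. Hnrnpf and Hnrnph1, which bind G-rich tracts, had no Ser5P at the outer end in any library. Hnrnpu, a scaffold protein that ties RNA to the nuclear matrix, had 84 and 177 bp of Ser5P in the KD libraries, against 73 and 0 bp in the controls. These values came from the edge of a larger peak, since its RefSeq start lies 1076 bp inside the outer end. Around that start Ser5P covered 1052 and 1042 bp in the KD libraries, against 956 and 564 bp in the controls. Hnrnpl, which binds CA repeats, had 307 and 392 bp at the outer end in the KD libraries, against 455 and 355 bp in the controls. Around its RefSeq start, 2344 bp further in, it had 1289 and 1066 bp in the KD libraries, against 1059 and 1089 bp in the controls.

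The authors' fold of each start peak was ranked within its own list, where it may be used to describe but not to compare lists. Over the 30 marked genes the median percentile lay between 75.9 and 84.3 in the 8 lists. Hnrnpk, a KH-domain protein that binds C-rich stretches, ranked highest for Ser5P, with a median percentile of 99.0 over its 4 libraries. Hnrnpa2b1, a core hnRNP particle protein, stood at 97.4 and Hnrnpul2 at 97.1. The lowest were Srsf4, one of the largest SR proteins, at 44.7 and Hnrnpu at 47.6. For Ser2P, Hnrnpa2b1 ranked highest at 97.1 and Hnrnpu lowest at 42.3.

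**Figure D3:**
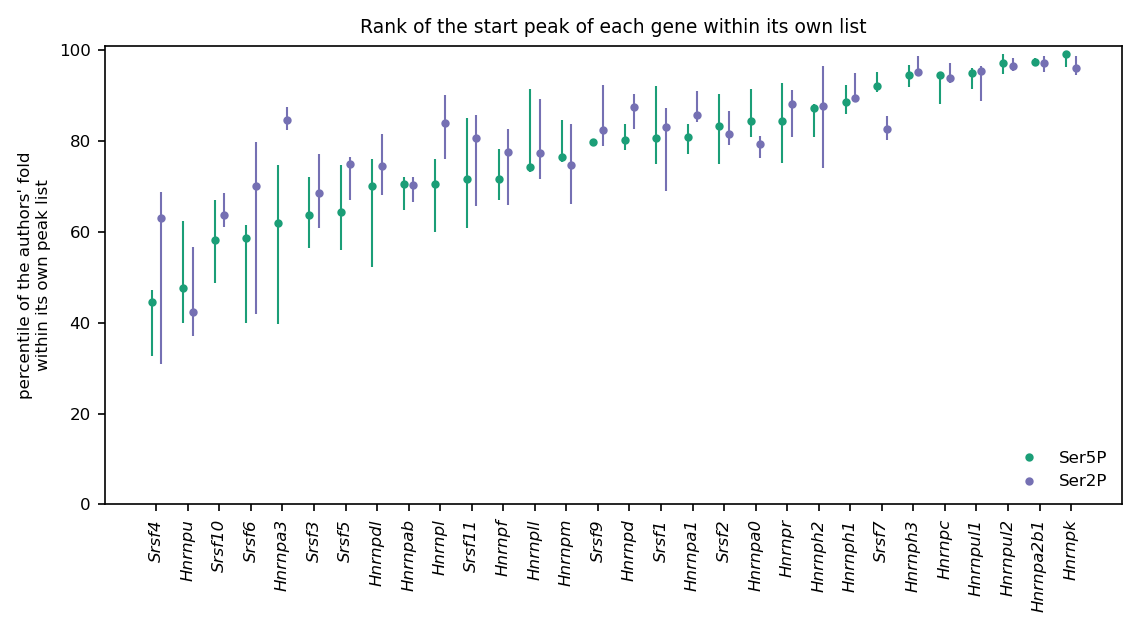
Percentile of the authors' fold of each gene's start peak within its own peak list, with the median (point) and the range over the 4 libraries (line) for Ser5P and Ser2P, in the order of the Ser5P medians. Srsf4 and Hnrnpu lie lowest for Ser5P at 44.7 and 47.6, and Hnrnpk highest at 99.0.

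Many of these genes share their promoter region with a neighbour. An opposite-strand gene had its 5′ end within 1000 bp of the member's 5′ end for 11 of the 32 genes (34.4%), against 10.8% of all genes. They were Srsf7 beside Gemin6, itself part of the complex that assembles snRNPs, Srsf11 beside Lrrc40, Hnrnpa1 beside Cbx5 and Hnrnpa2b1 beside Cbx3, both heterochromatin protein genes, Hnrnpc beside Rpgrip1, Hnrnpd beside 4930524J08Rik, Hnrnpdl beside Enoph1, Hnrnph2 beside Gla, Hnrnph3 beside Pbld2, Hnrnpll beside 4933407O12Rik and Hnrnpul2 beside Ttc9c. This count used the outer 5′ end only. The opposite-strand Rmi1 5′ end lay 1095 bp inside the outer end of Hnrnpk, whose RefSeq start lies 1226 bp inside. That of Mfsd11 lay 1464 bp inside the outer end of Srsf2, whose RefSeq start lies 581 bp inside. A region at an inner Hnrnpf start held the opposite-strand 5′ end of 4933440N22Rik. Peaks carry no strand, so polymerase of the member and of its neighbour cannot be told apart at any of these starts. Neighbours also lay near the far end: the 5′ end of Cox20 was 3013 bp past the 3′ end of Hnrnpu, that of Ccdc97 2126 bp past Hnrnpul1, and that of Ech1 3070 bp past Hnrnpl. The genes were shorter than the average, with a median length of 10992.5 bp against 17264 bp for all genes.

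The transcribed interval was taken to start 1000 bp downstream of the outer 5′ end and to extend 3000 bp beyond the 3′ end. Fewer of the splicing factor genes were marked there than at the promoter, for either mark. Ser5P marked 17 of 32 genes in all 4 libraries, 3 of 11 SR and 14 of 21 hnRNP genes, against 25.5% of all genes, and the difference between the families was not tested. Ser2P marked 18 genes, 7 SR and 11 hnRNP, against 26.4% of all genes. Part of this coverage belongs to starts inside the interval. From 1000 bp inside the innermost RefSeq start, Ser5P marked 13 of 30 genes, against 20.8% of all genes, and Ser2P 12 of 30, against 22.5%. In the 3000 bp past the 3′ end Ser5P marked 8 of 32 genes in every library, against 8.23% of all genes, and Ser2P 9 of 32, against 8.56%.

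Hnrnpu had the highest Ser2P coverage of the interval. Ser2P covered 3076 and 2742 bp in its KD libraries, against 2536 and 2217 bp in its controls, and a region at chr1:178318155-178319893, centred 2084 bp past its 3′ end, was present in all 8 libraries. The Cox20 start lies just beyond the far edge of that region. There Ser2P covered 1630 and 1657 bp in the KD libraries, against 1713 and 1369 bp in the controls, so the groups overlapped. The interval also takes in the Hnrnpu RefSeq start. A region at that start had 934 and 623 bp of Ser2P in the KD libraries, against 386 and 377 bp in the controls. Hnrnpf had 2948 and 2960 bp of Ser2P in the KD libraries, against 2023 and 2239 bp in the controls, and Hnrnpul1, which acts in DNA end resection, 2624 and 2093 bp in the KD libraries, against 1927 and 1190 bp in the controls. All 3 genes had both KD libraries above both controls. A region at chr7:25718706-25720437, past the 3′ end of Hnrnpul1, holds the Ccdc97 5′ end. Ser2P covered 1489 and 1300 bp of that region in the KD libraries, against 775 and 710 bp in the controls. The highest SR gene for Ser2P was Srsf7, with 743 and 1095 bp in the KD libraries, against 734 and 454 bp in the controls. Srsf11 had 1020 and 474 bp of Ser2P in the KD libraries, against 977 and 353 bp in the controls. Most of this lay at its second RefSeq start, where a region had 726 and 474 bp in the KD libraries, against 560 and 353 bp in the controls. At the low end of the SR genes, Srsf5 had 16 and 38 bp in the KD libraries, against 16 and 4 bp in the controls, and Srsf10 had 198 and 0 bp in the KD libraries, against 0 and 0 bp in the controls. Groups overlapped for Srsf11, Srsf5 and Srsf10, and for Srsf7 they did not. Hnrnpa0, Hnrnph2, Hnrnph3, Srsf12 and Hnrnpa1l2-ps2 had no peak of either mark there in any library, so Hnrnpa0, which binds AU-rich mRNA, Hnrnph2 and Hnrnph3 carried peaks at their starts only.

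Peaks of all 8 libraries that touched the windows of these genes merged into 82 regions. Of these, 40 (48.8%) were present in all 8 libraries, against 21% of 56000 regions genome-wide. Regions centred within 1000 bp of a RefSeq start numbered 35, and 31 of them were in all 8 libraries. Of the 26 regions past a 3′ end, 7 were in all 8: those of Hnrnpa3, Hnrnph1, Hnrnpk, Hnrnpu, Hnrnpul1, Srsf3 and Srsf7. The Hnrnpul1 region holds the Ccdc97 5′ end. Of 21 regions inside a gene, 2 were in all 8, at Hnrnpu and Hnrnpm, and 6 were in a single library. Away from the starts, most regions of these genes were thus not found in every library. KD-only regions numbered 2 for Ser5P (1.43% of all regions) and 2 for Ser2P (4.3%). Control-only regions numbered 1 for Ser5P (2.73%) and 1 for Ser2P (1.36%), which was the same region of Srsf6.

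The comparison of the lines asked whether polymerase at the splicing factor genes differed after knockdown of the enhancer RNA. For Ser5P at the promoter no gene was KD-only, meaning a peak in both KD libraries and in neither control (0.409% of all genes), and none was control-only (0.446% of all genes). Where a gene had a peak in at least 1 library, both KD libraries exceeded both controls in covered bp for 13 of 28 genes, against 25.6% of all such genes. Both lay below both controls for 5 of 28, against 10.8%: Srsf4, Srsf6, Srsf9, Srsf11 and Hnrnpul1. Around RefSeq starts it was 12 of 28 genes above, against 26.7%, and 3 of 28 below, against 10.4%: Srsf1, Srsf6 and Srsf9. For the 27 genes marked in all 4 libraries the median log2 ratio of KD to control coverage was 0.06, ranging from -0.63 at Srsf6 to 0.53 at Hnrnpa3, against a median of 0.07 for all genes. The Ser5P KD libraries were also the deeper ones, with the wider peaks.

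Srsf6, or SRp55, had the lowest KD coverage relative to control. The promoter window held 726 and 614 bp of Ser5P in the KD libraries, against 1039 and 1033 bp in the controls, and the groups did not overlap. The difference in covered share of the window was -18.3 percentage points with a standard error of 3.59, and it did not pass limma's test across 9799 genes (unadjusted p = 0.00812, adjusted p = 0.362). In the other direction Hnrnpdl led with a difference of 19.7 points and a standard error of 6.34 (adjusted p = 0.517). Hnrnpa3, a close relative of Hnrnpa1, had 1292 and 1088 bp in the KD libraries, against 666 and 983 bp in the controls (adjusted p = 0.627). Srsf7 differed by 8.97 points with a standard error of 3.59 (adjusted p = 0.621). Srsf11 had 523 and 545 bp in the KD libraries, against 891 and 620 bp in the controls. With its second RefSeq start taken in, the direction reversed, with 1596 and 1322 bp in the KD libraries, against 1274 and 620 bp in the controls. Srsf9, a relative of Srsf1, had 696 and 747 bp in the KD libraries, against 835 and 870 bp in the controls. Limma called 0 genes in this window (0%) at an adjusted p under 0.05. At an unadjusted p under 0.05 it called 648 genes with KD higher (6.61%) and 216 with KD lower (2.2%), among them Hnrnpdl and Srsf6. For a single gene, 4 libraries can be split into 2 and 2 in only 6 ways, so an exact two-sided permutation test cannot reach a p of 0.05.

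**Figure D4:**
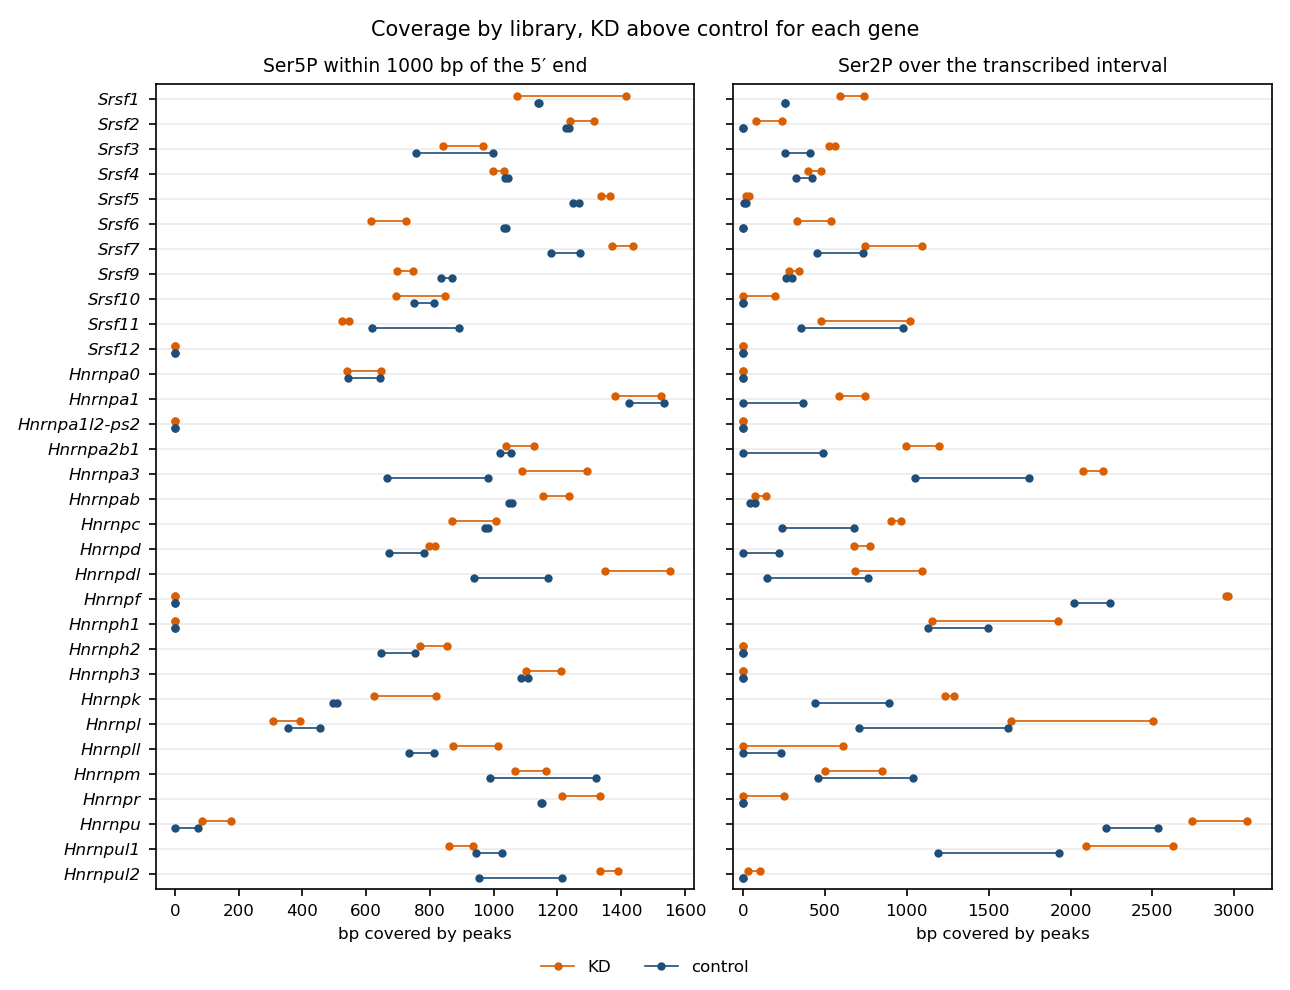
Base pairs covered by peaks in each library for the 32 genes, with KD (orange) above control (blue) in each row, for Ser5P within 1000 bp of the outer 5′ end on the left and for Ser2P over the transcribed interval on the right. Each point is a library and each line joins the 2 libraries of a line. Srsf6 is the gene whose Ser5P points lie furthest below its controls, and on the right no gene has both KD points below both controls.

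At Srsf6 (chr2:162931508-162937121) most of the difference lay in a separate peak inside the gene. A region at chr2:162932235-162932529, centred 874 bp downstream of the start, was covered by 0 and 0 bp of Ser5P peaks in the KD libraries, against 295 and 257 bp in the controls. Ser2P peaks covered 0 and 0 bp of it in the KD libraries, against 257 and 211 bp in the controls. No KD library and every control library thus had a peak there, for both antibodies. The same call came out with a stricter threshold, with lists of equal length and after thinning. Regions that were control-only for both antibodies made up 0.23% of all regions, and 0.326%, 0.327% and 0.441% in those 3 settings. This was 1 of the 82 regions of these genes, chosen after its values were seen and not tested. The start peak itself was present in all 8 libraries, with 726 and 614 bp of Ser5P in the KD libraries, against 765 and 776 bp in the controls. Ser2P at the start peak went the other way, with 903 and 690 bp in the KD libraries, against 631 and 480 bp in the controls. Over the whole promoter window Ser2P overlapped between the lines, at 903 and 690 bp in the KD libraries, against 888 and 691 bp in the controls. Whether fewer cells held polymerase at the control-only region or each cell held less of it cannot be told apart in these bulk libraries.

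Past the 3′ end of Srsf6 the lines were apart for Ser2P and overlapped for Ser5P. In a region at chr2:162939445-162940050, centred 2626.5 bp past the 3′ end, Ser2P covered 536 and 330 bp in the KD libraries, against 0 and 0 bp in the controls. Ser5P covered 0 and 440 bp of the same region in the KD libraries, against 277 and 355 bp in the controls. Polymerase peaks were thus present in at least 1 library of each line. Srsf6 was therefore KD-only for Ser2P along the transcribed interval, but not in any of those 3 settings.

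**Figure D5:**
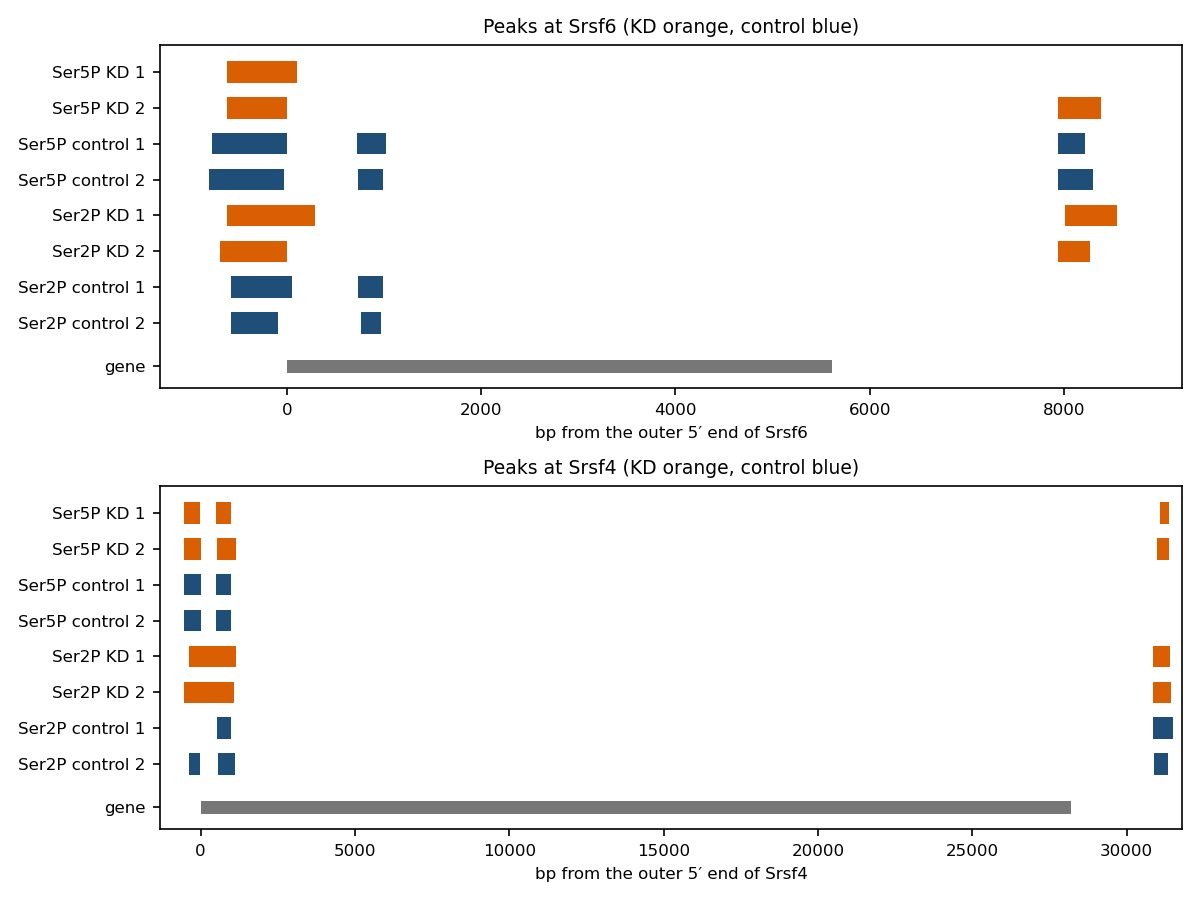
Peaks at Srsf6 (top) and Srsf4 (bottom) in each library, KD orange and control blue, against the distance in bp from the outer 5′ end, with the gene as a grey bar. The peak centred 874 bp inside Srsf6 is seen in the 4 control libraries and in no KD library, and the Ser5P peak past the 3′ end of Srsf4 is seen in both KD libraries and in neither Ser5P control.

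For Ser2P at the promoter 1 gene was KD-only, Hnrnpu (1.1% of all genes), and none was control-only (0.2% of all genes). The Hnrnpu call rested on the edge of its start peak, which reached 22 and 88 bp into the window in the KD libraries, against 0 and 0 bp in the controls. Around the RefSeq start Hnrnpu had Ser2P in every library, with 934 and 623 bp in the KD libraries, against 386 and 377 bp in the controls. Both KD libraries exceeded both controls for 13 of 28 genes, close to the 46.1% of all such genes. Both lay below for 3 of 28, against 2.21%: Srsf1, Hnrnpa1 and Hnrnpc. The median log2 ratio was 0.24 over the 26 genes marked in all 4 libraries, against 0.28 for all genes, and the Ser2P KD libraries were the deeper ones with the wider peaks.

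Srsf4 and Hnrnpab had the smallest p-values for promoter Ser2P. Srsf4 (chr4:131873530-131901725) had 1362 and 1534 bp in the KD libraries, against 459 and 782 bp in the controls, a difference of 41.4 points with a standard error of 7.50 (adjusted p = 0.254). A single peak ran across its starts in each KD library, whereas control 2 had 2 separate peaks and control 1 had only the inner of these. Hnrnpab, which binds CArG elements, had 1620 and 1639 bp in the KD libraries, against 1147 and 962 bp in the controls, a difference of 28.7 points with a standard error of 5.14 (adjusted p = 0.254). Hnrnpa3 had 930 and 1019 bp in the KD libraries, against 567 and 571 bp in the controls (adjusted p = 0.257). In these 3 genes every KD library lay above both controls. Hnrnpr had 1221 and 1586 bp in the KD libraries, against 890 and 468 bp in the controls (adjusted p = 0.287). Hnrnpa0 had 1012 and 920 bp in the KD libraries, against 576 and 552 bp in the controls (adjusted p = 0.257). The groups did not overlap for Hnrnpr and Hnrnpa0 either. Limma called 0 genes at an adjusted p under 0.05. At an unadjusted p under 0.05 it called 14.2% of 10049 genes with KD higher, among them 8 of the 28 splicing factor genes, and 0.428% with KD lower, among them none.

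The 3 genes with less promoter Ser2P in both KD libraries had it by smaller amounts. Hnrnpa1 (chr15:103239943-103246698) had 1090 and 1083 bp in the KD libraries, against 1358 and 1226 bp in the controls. Srsf1, the prototype SR protein, had 800 and 785 bp in the KD libraries, against 959 and 818 bp in the controls. Hnrnpc, which binds U-tracts and stays in the nucleus, had 842 and 817 bp in the KD libraries, against 913 and 863 bp in the controls. Around the RefSeq start of Srsf1, however, which lies 874 bp inside the outer end, Ser2P covered 1536 and 1378 bp in the KD libraries, against 1217 and 1071 bp in the controls. Hnrnpa1 and Hnrnpc kept their direction around the RefSeq start, 2 of 28 genes against 2.1% of all such genes. There 13 of 28 genes were higher in both KD libraries, against 47.2%.

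Along the transcribed interval Ser2P coverage was higher in both KD libraries than in both controls for 16 of 27 genes, against 33.9% of all such genes, and for no gene was it lower in both (3.48% of all such genes). Among the 18 genes marked in all 4 libraries the median log2 ratio was 0.62, and 17 of 18 were above 0. Over all genes the median was 0.41 and 83.0% were above 0. The highest ratios, 1.43 at Srsf5 and 1.38 at Srsf1, came from flanks of start peaks, the only regions of these 2 genes. With equal list length the medians were 0.71 for the splicing factor genes and 0.29 for all genes, and after thinning they were 0.63 and 0.26. With equal lists 17 of 17 were above 0, against 77.6% of all genes, and after thinning 13 of 15, against 73.0%. After thinning, 10 of 25 genes were higher in both KD libraries, 1 of 9 SR and 9 of 16 hnRNP genes, against 23.6% of all such genes, and none was lower in both, against 7.52%. Before thinning the 16 were 5 of 10 SR and 11 of 17 hnRNP genes. These steps remove peaks and leave the widths of the others as they were. From 1000 bp inside the innermost RefSeq start 12 of 23 genes were higher in both KD libraries, against 32.8%, and in the 3000 bp past the 3′ end 10 of 19, against 29.8%. None was lower in both, against 3.62% and 2.39%. The 10 were Srsf3, whose protein also aids mRNA export, Srsf6, Srsf7, Hnrnpa1, Hnrnpa2b1, Hnrnpa3, Hnrnpd, Hnrnpf, Hnrnpk and Hnrnpul1. For Hnrnpul1 this stretch holds the Ccdc97 5′ end. The part of depth and peak width in these differences was not tested.

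The largest KD minus control difference for Ser2P was at Hnrnpl, with 2501 and 1638 bp in the KD libraries, against 1618 and 710 bp in the controls. This window takes in the Hnrnpl RefSeq start. A region there had 1064 and 807 bp in the KD libraries, against 693 and 574 bp in the controls. Another region past the 3′ end reached the Ech1 5′ end. It had 368 and 368 bp in the KD libraries, against 518 and 220 bp in the controls. From 1000 bp inside its RefSeq start, Hnrnpl was not among the genes higher in both KD libraries. Hnrnpa2b1 had 1198 and 998 bp in the KD libraries, against 488 and 0 bp in the controls, and its adjusted p was 0.434. Its coverage lay past the 3′ end, and without the shallowest library, Ser2P control 2, the control value is 488 bp. For Hnrnpf the difference was 3.02 percentage points of the window with a standard error of 0.451 (adjusted p = 0.281). Most of this window's coverage was the Hnrnpf inner start peaks. The region at chr6:117906634-117908210 had 1270 and 1256 bp in the KD libraries, against 1318 and 1256 bp in the controls. The region at chr6:117916411-117917827 had 1403 and 1285 bp in the KD libraries, against 705 and 760 bp in the controls. Past the 3′ end Hnrnpf had 275 and 419 bp in the KD libraries, against 0 and 223 bp in the controls. Srsf1 had 737 and 594 bp in the KD libraries, against 259 and 254 bp in the controls, a difference of 4.42 points with a standard error of 0.692 (adjusted p = 0.283). This was the far flank of the Srsf1 start peak, the only region of the gene. Hnrnpd, or AUF1, which binds AU-rich elements, had 679 and 774 bp in the KD libraries, against 220 and 0 bp in the controls (adjusted p = 0.368). A region at chr5:99953543-99954194, centred 2066.5 bp past the 3′ end of Hnrnpd, had 413 and 415 bp of Ser2P in the KD libraries, against 0 and 0 bp in the controls, while Ser5P marked it in KD 2 alone, and with the stricter threshold this site was not called. Limma called 0 genes at an adjusted p under 0.05. At an unadjusted p under 0.05 it called 9.25% of 10649 genes with KD higher, among them 6 of 27 splicing factor genes, and 0.629% with KD lower, among them none.

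The genes called KD-only for Ser2P along the interval were Srsf2, Srsf6 and Hnrnpul2, 3 of 32 genes beside 2.25% of all genes, and none was control-only (0.548% of all genes). Little coverage stood behind 2 of these calls. For Srsf2 (chr11:116849897-116853675) it was 81 bp at the edge of the start peak in KD 1 and a separate peak of 237 bp past the 3′ end in KD 2. For Hnrnpul2 (chr19:8819401-8834143) it was 102 and 29 bp at the edge of the start peak in the KD libraries, against 0 and 0 bp in the controls. Hnrnpul2 kept its call at the stricter threshold, at equal length and after thinning, where 2.02%, 1.39% and 1.36% of all genes were KD-only, and lost it where 200 bp had to be covered. Srsf2 lost it in all of these.

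For Ser5P along the interval the calls were Srsf4 and Srsf5, both KD-only (1.08% of all genes), and none was control-only (1.44% of all genes). Srsf5 rested on 38 and 4 bp at the edge of its start peak in the KD libraries, against 0 and 0 bp in the controls. Srsf4 had 117 and 370 bp in the KD libraries, against 0 and 0 bp in the controls, and kept its call in the same 3 settings, in which 0.803%, 1.33% and 0.84% of all genes were KD-only. Within the 3000 bp past the 3′ end it had 117 and 223 bp in the KD libraries, against 0 and 0 bp in the controls, and the rest of the KD 2 value was the inner flank of the start peak. The peaks past the 3′ end lay in a region at chr4:131904400-131905019, centred 2984.5 bp past it, which was 294 and 393 bp covered by Ser5P in the KD libraries, against 0 and 0 bp in the controls. Ser2P marked this region in all 4 libraries, with 547 and 585 bp in the KD libraries, against 620 and 473 bp in the controls. At this site the lines thus differed in Ser5P peaks and not in the presence of Ser2P peaks.

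The groups of Ser5P coverage along the interval did not overlap for 12 of 25 genes, with 8 higher in the KD libraries (15.2% of all such genes) and 4 lower (15.6%). Srsf11 (chr3:158010915-158036667), a Ser and Arg rich factor also called p54, had 1432 and 1205 bp in the KD libraries, against 383 and 0 bp in the controls (adjusted p = 0.383). Most of this lay at its second RefSeq start, where a region had 1073 and 777 bp in the KD libraries, against 383 and 0 bp in the controls. A region inside the gene near its 3′ end, at chr3:158011739-158012176, had 359 and 428 bp in the KD libraries, against 0 and 0 bp in the controls, and was not called with the stricter threshold. Hnrnpk had 1390 and 1361 bp in the KD libraries, against 796 and 499 bp in the controls (adjusted p = 0.386). The Hnrnpk window takes in its RefSeq start, where Ser5P covered 1409 and 1186 bp in the KD libraries, against 738 and 756 bp in the controls. The opposite-strand Rmi1 5′ end also lies there. Hnrnpul1 had 2352 and 2522 bp in the KD libraries, against 3292 and 2905 bp in the controls, the largest difference with KD lower (adjusted p = 0.607). The region that holds the Ccdc97 5′ end gave 1445 and 1534 bp of this in the KD libraries, against 1565 and 1457 bp in the controls. The window also takes in the Hnrnpul1 RefSeq start. A region inside the gene, at chr7:25738129-25738740, had 433 and 0 bp in the KD libraries, against 578 and 612 bp in the controls. Ser5P marked the other regions inside the gene in only some libraries. Srsf9 had 332 and 0 bp in the KD libraries, against 435 and 455 bp in the controls, and Srsf1 had 541 and 717 bp in the KD libraries, against 871 and 805 bp in the controls. Hnrnpa2b1 had 562 and 1069 bp in the KD libraries, against 228 and 519 bp in the controls. Srsf11, Hnrnpk and Hnrnpa2b1 were thus the genes with the largest differences in one direction, and Hnrnpul1, Srsf9 and Srsf1 in the other. Limma called 0 genes here, with 4.23% of 9883 genes higher in KD and 3.55% lower at an unadjusted p under 0.05, among them Srsf11, Hnrnpk and Hnrnpu with KD higher and Hnrnpul1 with KD lower.

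The rest of the splicing machinery was looked at in lists of genes. Ser5P marked the promoter in all 4 libraries for 23 of 23 genes of the tri-snRNP and the catalytic spliceosome, 21 of 22 genes of the U1 and U2 snRNPs and early spliceosome, and 6 of 7 Sm ring genes. For the SR-related and Tra2 genes it was 10 of 13, for the SR kinases and phosphatase 7 of 11, and for hnRNP relatives with other symbols 17 of 22. Splicing regulators of restricted tissues, such as the neuronal Nova and Elavl proteins, had it at 4 of 20, and 12 of the 20 had no Ser5P peak at the 5′ end in any library. The SR and hnRNP genes had it at 27 of 32.

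Calls in these lists went in both directions. KD-only for both marks at the promoter were Srpk2, an SR protein kinase, and Mbnl3, a muscleblind protein. Srpk2 had 321 and 258 bp of Ser5P and 1144 and 647 bp of Ser2P in the KD libraries, against 0 bp in every control. Its Ser5P call was lost at the stricter threshold and its Ser2P call after thinning. Mbnl3 had 314 and 52 bp of Ser5P and 509 and 8 bp of Ser2P in the KD libraries, against 0 bp in every control, and kept both calls in all 3 settings.

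Along the interval Ser2P was KD-only at Prpf4b, a spliceosome-associated kinase, with 215 and 50 bp in the KD libraries, at Rsrc2 with 451 and 302 bp, at Snrpd3 of the Sm ring with 285 and 335 bp, at Cwc22, which loads the exon junction complex, with 590 and 464 bp, at Mbnl3 with 476 and 256 bp and at Matr3, which encodes the nuclear matrix protein matrin 3, with 1308 and 783 bp. All of their controls had 0 bp. Prpf4b, Cwc22, Mbnl3 and Matr3 kept these calls in all 3 settings, Snrpd3 lost its call after thinning, and Rsrc2 at the stricter threshold and after thinning. In the other direction Ser2P was control-only at Dhx15, a helicase that dismantles spliceosomes, with 0 and 0 bp in the KD libraries, against 264 and 288 bp in the controls.

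Ser5P along the interval was control-only at Ddx46, Msi1 and Nova1, with 0 bp in the KD libraries and, in the controls, 264 and 363 bp at Ddx46, 301 and 256 bp at Msi1, and 227 and 288 bp at Nova1. It was KD-only at Snrnp40 of the U5 snRNP, with 994 and 634 bp in the KD libraries, against 0 and 0 bp in the controls. Promoter Ser5P was KD-only at Srrm2, a core protein of nuclear speckles, with 293 and 763 bp in the KD libraries, against 0 and 0 bp in the controls. It was control-only at Pcbp4, with 0 and 0 bp in the KD libraries, against 286 and 454 bp in the controls. Neither the Ser5P calls of this paragraph nor the Ser2P call of Dhx15 were kept at the stricter threshold. The background shares were those given above for each window.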

How the data were processed

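CUT&Tag peak lists of 8 libraries were used, with samples grouped by the labels' antibody and genotype. Peaks were called with MACS2 2.2.7.1 against the mouse build GRCm38/mm10, per the submitters' processing notes, which also list Bowtie2 2.3.5, cutadapt 2.7, deepTools 3.3.1, Picard 2.21.4 and SAMtools 1.9. Settings were not given in the sources used here. The lists the authors deposited give, per library and peak, a score, a fold ratio, a −log10 p-value, a −log10 q-value and a summit offset. Read totals were not used here.

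Gene intervals came from the RefSeq table for GRCm38.p6. Strand came from the RefSeq promoter table (17492 genes), or from GENCODE vM1 by symbol (3649) or synonym (394), and 352 of 21887 genes were left out. The NCBIM37 genome supplied is another build and was not used. Covered bp and marked windows were computed in Python 3.11.15 with numpy 2.4.6 and pandas 2.3.3. The share of each window covered was fitted with limma 3.58.1 in R 4.3.3, KD minus control, for each antibody and window. The fit took all genes marked in at least 1 library, with Benjamini-Hochberg adjustment over all of them. It was also run on simulated data. Their noise was set and not taken from these libraries, so that run does not show the power of the fits here. Fold and p gave the pileups, with a tolerance of 0.001 on −log10 p, and a relative depth.

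Other settings tried were a stricter threshold (−log10 q from 5), lists cut to equal length, binomial thinning of pileups to the shallowest library, 200 bp of coverage, windows of 500 and 2000 bp, extensions of 0 and 1000 bp, a log2(bp + 100) scale, no filter, a replicate block and leaving out each library. Windows around RefSeq starts, the other window of each antibody and the merged regions were added after seeing the data. Thinning and equal lists drop peaks and keep the widths of those that stay.

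Every member is named. Values in every library are given for called members, the 3 highest and 3 lowest per family for promoter Ser5P and interval Ser2P, the 3 largest differences in each direction among members without overlap, and the 3 smallest limma p-values. In other lists up to 4 called genes are given, by the authors' fold, and a withheld item is not reported here. Members and lists were chosen with earlier results of these data known.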

Additional observations from a re-analysis of the deposited data

How the results depend on the processing

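For promoter Ser5P, the mean KD minus control coverage over the 32 genes was 47.9 bp, and it was 33.7 bp within 500 bp and 76.1 bp around RefSeq starts (43.6 to 52.1 bp leaving out each library). For Ser2P along the interval it was 302 bp, against 121 bp without and 160 bp with 1000 bp of extension past the 3′ end (189 to 416 bp leaving out each library), so much of it lay past the 3′ ends. Ser2P KD-only calls along the interval numbered 3. At the stricter threshold they numbered 2, Hnrnpa2b1 and Hnrnpul2 (2.02% of all genes), and with equal lists 2, Hnrnpd and Hnrnpul2 (1.39%). They numbered 1 after thinning, with 200 bp covered, without extension, with 1000 bp of extension and around RefSeq starts. They numbered 3 to 6 leaving out each library, with 6 without control 1. Promoter Ser5P had 0 to 1 KD-only calls, the 1 being without control 1. Leaving out each library, the counts of genes marked in every remaining library were 27 to 28 (Ser5P) and 18 to 21 (Ser2P), and control-only calls 0 to 0. In the other settings promoter Ser5P marked between 25 genes (within 500 bp) and 29 genes (within 2000 bp) in all 4 libraries. Ser2P along the interval marked 17 genes with equal lists, 15 after thinning and 14 at the stricter threshold. It marked 13 genes without extension and 12 of 30 around RefSeq starts. No count or mean over the 32 genes turned its direction. Around RefSeq starts 2 single genes did with groups apart in both windows, Srsf1 for promoter Ser2P and Srsf11 for promoter Ser5P. The sign of the difference of means also turned for Hnrnpf in Ser2P and for Srsf1, Srsf4, Hnrnpl and Hnrnpul1 in Ser5P, where groups overlapped in at least 1 of the windows.

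Limma called 0 genes in all 4 fits, also leaving out each library (0 to 0), with equal lists, the stricter threshold and thinning. On the log2 scale it called 76 genes for promoter Ser5P, none of them a splicing factor gene. With all genes, which adds genes at 0 in every library, it called 177 for Ser2P along the interval, including Srsf1 (adjusted p = 0.0495), 450 for Ser5P, including Hnrnpk (0.000609) and Srsf11 (0.00213), and 1 for promoter Ser2P. The main fits used no pairing by replicate number, since no shared batch is labelled. Libraries with the same number had deviations correlated at 0.0379 (promoter Ser5P) and 0.0907 (Ser2P along the interval). These values cannot settle whether such libraries were made together. With the replicate block limma called 0 genes in all 4 fits, and at an unadjusted p under 0.05 it called 840 (promoter Ser5P), 1097 (Ser2P along the interval), 1512 (promoter Ser2P) and 691 (Ser5P along the interval).

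The tests used presence and width of peaks and not their height, and a count of 0 does not show that coverage was the same. Ser2P control 2 was the shallowest library.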
